A study of Mus musculus with 9 samples.

Results

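Chemokine and chemokine receptor genes were followed in mouse back skin of a control group, a group treated with imiquimod, and a group treated with imiquimod together with Longkui Yinxiao soup. The 56 genes, out of 29205 in the deposited table, were taken by name: the Ccl, Cxcl, Ccr and Cxcr genes with a number, Xcl1, Xcr1, Cx3cl1, Cx3cr1 and Ackr1 to Ackr4. Cxcl1, Cxcl2, Cxcl3, Cxcl5, Cxcr1 and Cxcr2, the neutrophil-attracting axis, were not among them. They comprised 25 CC ligands, 10 CXC or other ligands, 17 receptors and 4 atypical receptors. All mice were male BALB/c animals aged 6 to 8 weeks, shaved and depilated on the back, and skin was collected on day 13. The Control group received no imiquimod cream, and neither the labels nor the methods describe a vehicle cream or sham gavage for it. The IMQ group received 62.5 mg of imiquimod cream (5% w/w) on the back each day for 5 days. No sham gavage is described for this group either. The LYS group received the same cream and the soup, a decoction of botanical drugs given by gavage from the first day to the day before collection. It was given at the higher dose of the study per its methods, since the labels name no dose. Imiquimod is a Toll-like receptor agonist that gives psoriasis-like lesions in mouse skin, a short model of the human disease.

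Chemokines are small secreted proteins that guide leukocytes along concentration gradients, and they are named CC, CXC, XC or CX3C after the spacing of conserved cysteines. They act through G protein-coupled receptors, many of which bind several ligands, while many ligands bind several receptors. The atypical receptors bind chemokines without G protein signalling and take them up, transport or present them. In psoriasis-like skin, chemokines made by keratinocytes, macrophages, dendritic cells and endothelium are known to draw in neutrophils, monocytes and T cells.

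Each group held 3 libraries, named here by group and replicate number, and values are given in the order of replicates 1, 2 and 3. The total counts were 18123424, 19609878 and 17149506 in Control, 17988104, 17005853 and 16915191 in IMQ, and 14658645, 16743869 and 15877301 in LYS. The 56 genes took 12527 to 30900 of these counts in a library. Levels are given as FPKM, counts scaled to gene length and to the depth of the library, which can be compared between genes. Markers of keratinocytes and fibroblasts summed to at least 2938 and 414 FPKM in each library, as the skin label asks. Within a group, the spread between libraries exceeded that of counting alone (chi-square divided by its degrees of freedom, 16.9 to 100), so none was a repeat count of another. The methods give 3 skin tissues per group without stating that each came from a different mouse, and the p-values measure the spread between these samples. LYS 1 stood apart from LYS 2 and LYS 3 in many of the genes below, and the counts of called members in LYS are therefore also given without it. RNA of whole skin was measured, so fewer cells of a type and less RNA per cell cannot be told apart in any of the values.

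IMQ against Control shows the change in imiquimod skin, and there chemokine genes were called in both directions. Ccl3 rose from under 1 FPKM in each Control library to between 29.4 and 147 FPKM in IMQ, Ccl4 rose beside it, and 7 of 14 tested receptors rose, Ccr1 and Cxcr6 among them. The eotaxins Ccl11 and Ccl24, Ccl9, Cxcl14 and each of the 4 atypical receptors fell. Calls were made with edgeR's quasi-likelihood test over all genes, where the Benjamini-Hochberg adjusted p was under 0.05 and the log2 fold change exceeded 0.58 in size. Of 42 tested members, 13 were called higher, where 24.1% of the 15976 genes tested were called higher. Another 13 were called lower, where 26.9% of all tested genes were called lower. Both counts stood close to this background, and the median log2 fold change was -0.31 over the members and -0.06 over all genes. With scaling by library totals alone, which moved the median of all genes to -0.51, 10 members were higher and 16 lower, where 15% and 42.9% of all genes were. Ccl22, Cx3cl1 and Ccr7 were then no longer called.

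For LYS against Control, which shows how far skin treated with both agents differed from control skin, higher calls outnumbered lower ones. Ccl3, Ccl4, Cxcr6, Ccr1 and Ccr6 were higher, as were the monocyte attractants Ccl2, Ccl7 and Ccl12 and the B cell attractant Cxcl13. Of 43 tested members, 13 were called higher, where 15.1% of the 16003 genes tested by edgeR were called higher, and 2 were called lower, Ackr4 and Cxcl14, where 12.9% were. The median log2 fold change was 0.66 over the members and -0.01 over all genes. DESeq2 called 16 higher and 5 lower, and of all genes 16.5% higher and 2345 of 16003 lower. Without LYS 2 there were 8 higher and 2 lower (10.8% and 7.02% of all genes). Without LYS 1 there were 16 and 4 (15.5% and 13.4%), and without LYS 3 there were 13 and 6 (16.7% and 14.2%). Without Control 2 there were 9 and 2 (9.93% and 8.05%), and with a replicate block 8 and 2 (1721 and 1405 of the 16003 genes).

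LYS against IMQ shows what differed when the soup, given by gavage, was added to imiquimod. The soup and the gavage itself cannot be told apart in it. The edgeR fit of these 6 libraries called none of the 15460 genes tested. Its values below are therefore given as estimates only, while the alternatives named here did call genes. The member estimates were mostly positive, with a median log2 fold change of 0.67 against 0.04 for all genes. The largest positive estimates were those of Ackr1, Ccl7, Ccl12, Ccr3 and Cxcl12, and the largest negative ones those of Ccl3 and Ccl4. Among 42 tested members edgeR called 0 higher and 0 lower, as among all genes tested (0% in each direction), and the smallest adjusted p was 0.0591. By unadjusted p under 0.05, 19 members were higher and 4 lower, where 19.3% and 15.9% of all tested genes were. DESeq2 called 16 higher (12.8% of all genes) and 3 lower (9.18%). An edgeR fit that held all 9 libraries tested 45 members, of which 15 were called higher (9.93% of all genes) and 3 lower (8.62%). DESeq2 and the fit with 9 libraries called 19 and 18 members, and 17 were called by both. Leaving out LYS 1 gave 19 higher and 4 lower (14.9% and 11.9% of all genes). Leaving out IMQ 1 gave 4 higher and 3 lower, where 6.8% and 5.03% of all genes were, and leaving out any of the other 4 libraries gave 0 by edgeR. Under DESeq2, with all 9 libraries, with no filter on low counts and without LYS 1, the called members included Ackr1, Ccl2, Ccl5, Ccl7, Ccl8, Ccl11, Ccl12 and Cxcr4. Ccl9, Ccr2, Cxcl12 and Cxcl14 were called higher in those settings and also without IMQ 1, and Ccl3 and Ccr9 were called lower in the same ones. Ccl24 was called under DESeq2, with all 9 libraries and without LYS 1, Ccr3 under DESeq2, with no filter and without LYS 1, and Ccl19-ps1 with all 9 libraries and without LYS 1. Ackr2, Ackr3, Cxcl9, Ccl20 and Ccr4 were called without LYS 1, the last 2 of them lower. With scaling by library totals alone the median of all genes moved to 0.29 in this comparison and to -0.15 in LYS against Control. The comparisons share libraries, so their values are not independent of each other.

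**Figure D1:**
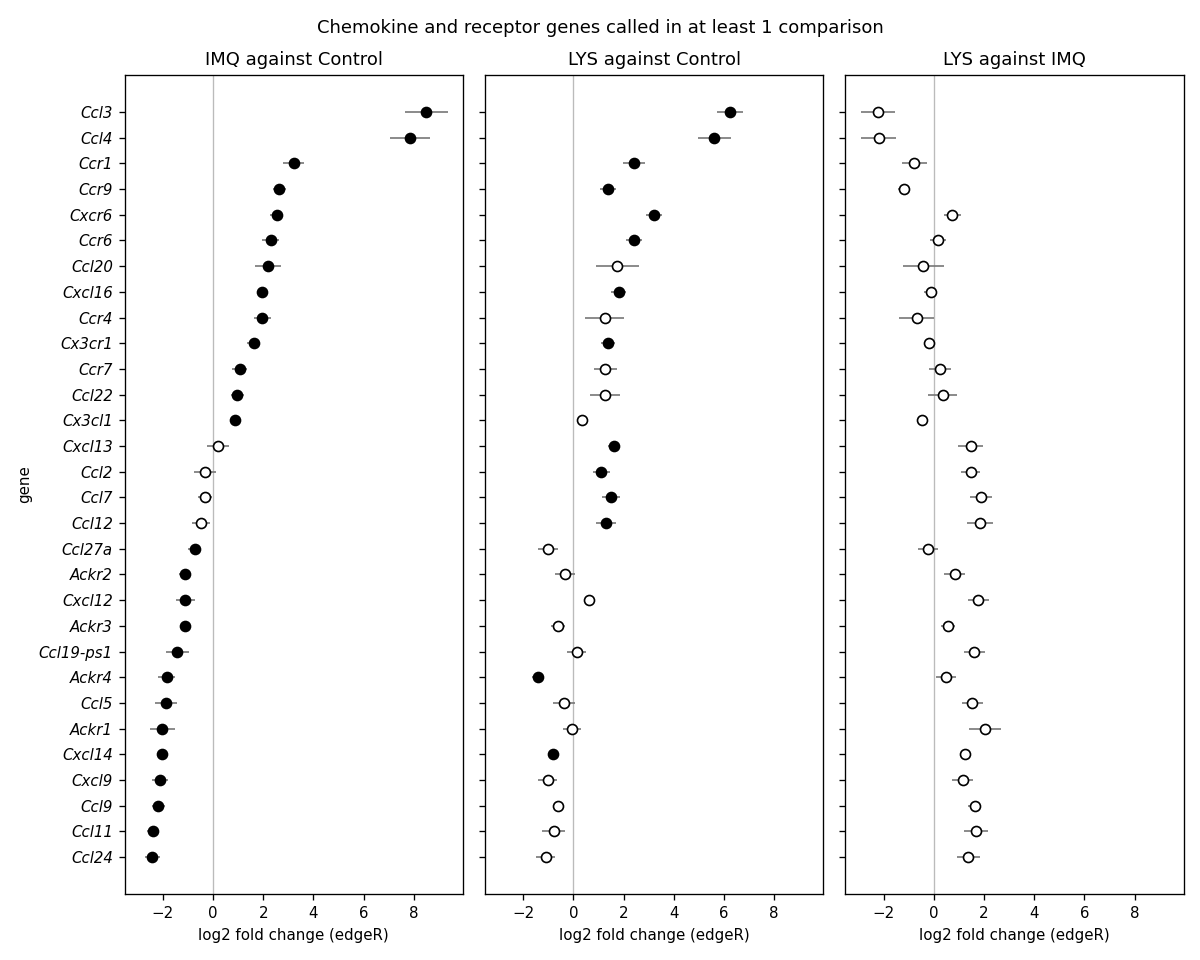
Fitted log2 fold changes (horizontal axis) with their standard errors (bars) for 30 of the genes called in at least 1 comparison, 1 panel for each comparison; filled points were called by edgeR and open points were not. Ccl3 and Ccl4 stand at 8.50 and 7.85 in IMQ against Control, and each point of LYS against IMQ is open.

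Among the CC ligands, Ccl3 and Ccl4 had by far the largest fold changes. Both are attractants of monocytes, macrophages and T cells, and Ccl3 is a ligand of Ccr1. Ccl3 (ENSMUSG00000000982, chr11:83647844-83649355 in GRCm38) had 0.360, 0.266 and 0.609 FPKM in Control, 29.4, 147 and 144 in IMQ, and 41.2, 25.7 and 16.5 in LYS. Ccl4 (ENSMUSG00000018930, chr11:83662584-83664683) had 0.334, 0.464 and 0.795 FPKM in Control, 26.9, 128 and 111 in IMQ, and 33.8, 27.4 and 8.88 in LYS. Each IMQ and LYS library lay above each Control library, while LYS 1 lay above IMQ 1, so that the IMQ and LYS ranges overlapped. The Control levels of Ccl3 rested on 5, 4 and 8 counts and those of Ccl4 on 4, 6 and 9, so the folds against Control are imprecise. The log2 fold change of Ccl3 was 8.50 (SE 0.85, edgeR adjusted p = 0.000111) in IMQ against Control and 6.24 (SE 0.52, edgeR adjusted p = 0.000441) in LYS against Control. For Ccl4 these were 7.85 (SE 0.79, edgeR adjusted p = 0.000115) and 5.62 (SE 0.66, edgeR adjusted p = 0.00137). In LYS against IMQ the estimates were -2.22 for Ccl3 (edgeR adjusted p = 0.0743) and -2.20 for Ccl4 (edgeR adjusted p = 0.0830), neither called. Both were called lower under DESeq2, with all 9 libraries, with no filter on low counts and without IMQ 1, and Ccl3 also without LYS 1. Over the alternatives the adjusted p ranged from 0.00426 to 0.254 for Ccl3 and from 0.00744 to 0.253 for Ccl4. The ligand FPKM was summed over the member ligands, without Cxcl1, Cxcl2, Cxcl3 and Cxcl5. The pair made up 0.106% to 0.281% of it in Control, 16.3%, 44.0% and 47.9% in IMQ, and 13.0%, 4.81% and 3.41% in LYS.

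The remaining CC ligands that rose in IMQ against Control were of low abundance. Ccl20, the ligand of Ccr6 made by keratinocytes, had 0.427, 0.323 and 0.862 FPKM in Control, 0.978, 2.48 and 1.83 in IMQ, and 3.60, 0.715 and 0.399 in LYS. It rose by a log2 fold change of 2.19 in IMQ against Control, and in LYS it was high in LYS 1 alone. Ccl22, a ligand of Ccr4 made by dendritic cells and macrophages, had 1.64, 0.921 and 1.35 FPKM in Control, 1.96, 1.67 and 1.93 in IMQ, and 4.72, 2.77 and 0.813 in LYS. Its log2 fold change was 0.96 in IMQ against Control, not called with all 9 libraries or library totals alone (adjusted p over the alternatives from 0.00205 to 0.145), and its LYS values spanned both other groups.

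The eotaxins and several other CC ligands fell in IMQ against Control. Ccl11 (ENSMUSG00000020676, chr11:82057823-82062955), an eotaxin that attracts eosinophils through Ccr3, had 28.2, 32.0 and 18.2 FPKM in Control, 4.32, 3.70 and 3.06 in IMQ, and 5.30, 13.2 and 24.4 in LYS. Ccl24 (ENSMUSG00000004814, chr5:135569937-135573049), another eotaxin, had 12.3, 12.6 and 7.88 FPKM in Control, 2.19, 1.14 and 1.23 in IMQ, and 2.05, 5.44 and 6.66 in LYS. In both genes the IMQ libraries lay below each Control library, and LYS 1 was the lowest LYS library. The log2 fold change in IMQ against Control was -2.39 for Ccl11 (SE 0.26, edgeR adjusted p = 0.000158) and -2.41 for Ccl24 (SE 0.30, edgeR adjusted p = 0.000329). The estimate for Ccl11 in LYS against IMQ was 1.68 (edgeR adjusted p = 0.0720). Ccl9 (ENSMUSG00000019122, chr11:83572919-83578636), a Ccr1 ligand, had 43.2, 37.3 and 26.4 FPKM in Control, 4.71, 7.42 and 5.13 in IMQ, and 15.5, 25.6 and 23.7 in LYS. On the FPKM scale, without TMM factors, the 3 groups did not overlap in Ccl9, with LYS between the others. LYS 2 lay close to Control 3, and Ccl9 was not called in LYS against Control (edgeR adjusted p = 0.0861). Ccl9 had a log2 fold change of -2.18 (SE 0.26, edgeR adjusted p = 0.000269) in IMQ against Control and 1.64 (SE 0.26, edgeR adjusted p = 0.0591) in LYS against IMQ.

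Ccl5, a T cell and monocyte attractant that binds Ccr1 and Ccr3, had 6.78, 2.66 and 7.41 FPKM in Control, 1.51, 0.858 and 0.985 in IMQ, and 1.99, 5.16 and 4.46 in LYS. It fell by 1.87 on the log2 scale in IMQ against Control, and its estimate in LYS against IMQ was 1.54 (SE 0.41, edgeR adjusted p = 0.0647). Ccl27a, the keratinocyte ligand of Ccr10, had 2.60, 1.85 and 2.75 FPKM in Control, 0.936, 1.26 and 0.945 in IMQ, and 1.61, 0.653 and 0.927 in LYS. Its log2 fold change of -0.73 in IMQ against Control was not called without Control 1, Control 3, IMQ 1 or IMQ 3, nor with all 9 libraries or a replicate block (adjusted p over the alternatives from 0.00510 to 0.119). Ccl19-ps1, a pseudogene near the Ccl19 gene whose reads may be shared with its copies, had 3.71, 4.37 and 2.32 FPKM in Control, 0.850, 0.719 and 1.27 in IMQ, and 2.92, 3.11 and 4.43 in LYS. Its log2 fold change of -1.43 in IMQ against Control was not called without Control 1, Control 2, IMQ 1 or IMQ 2, nor with no filter or a replicate block (adjusted p over the alternatives from 0.00649 to 0.0971), and the estimate was 1.60 (SE 0.42, edgeR adjusted p = 0.0633) in LYS against IMQ. The names Ccl27a and Ccl21a were each held by a further Ensembl gene with few or no counts, and reads of these near-identical copies may be split between them.

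Ccl2, Ccl7 and Ccl12, monocyte attractants, are ligands of Ccr2, and edgeR called none of these 3 in IMQ against Control. Ccl7 (ENSMUSG00000035373, chr11:82045712-82047525) had 6.96, 5.73 and 5.17 FPKM in Control, 4.23, 4.04 and 2.29 in IMQ, and 7.07, 22.1 and 17.5 in LYS. Ccl12 (ENSMUSG00000035352, chr11:82101845-82103400) had 4.11, 4.18 and 4.34 FPKM in Control, 1.66, 1.75 and 3.19 in IMQ, and 4.19, 14.6 and 10.1 in LYS. In these genes LYS 2 and LYS 3 lay well above the Control libraries, and LYS 1 lay close to them. Ccl2 had 4.27, 2.29 and 2.05 FPKM in Control, 2.35, 1.96 and 0.831 in IMQ, and 4.20, 6.82 and 5.92 in LYS. In LYS against Control the log2 fold change was 1.50 for Ccl7 (SE 0.37, edgeR adjusted p = 0.0200), 1.31 for Ccl12 and 1.11 for Ccl2. Ccl7 was not called without Control 1, Control 2, Control 3 or LYS 2 or with a replicate block (adjusted p over the alternatives from 0.000895 to 0.0792). Ccl12 was not called without any single library except LYS 1, nor with library totals alone or a replicate block (0.00356 to 0.148). Ccl2 was not called without Control 2, Control 3, LYS 2 or LYS 3, nor with all 9 libraries, library totals alone or a replicate block (0.00928 to 0.137). In LYS against IMQ the estimates were 1.88 for Ccl7 (SE 0.44, edgeR adjusted p = 0.0591), 1.85 for Ccl12 (SE 0.52, edgeR adjusted p = 0.0674) and 1.47 for Ccl2 (SE 0.38, edgeR adjusted p = 0.0636).

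Ccl8 (ENSMUSG00000009185, chr11:82115185-82116799), a macrophage product that in mice acts through Ccr8, was the most abundant of the member ligands in most libraries. It had 278, 254 and 213 FPKM in Control, 158, 114 and 129 in IMQ, and 234, 613 and 344 in LYS. These levels made up 42.4%, 43.0% and 42.5% of the ligand FPKM in Control, 45.8%, 18.3% and 24.2% in IMQ, and 40.6%, 55.4% and 46.2% in LYS. Ccl3 took the first place among the member ligands in IMQ 2 and IMQ 3, where Cxcl2, which is not a member, had 307 FPKM in each. The log2 fold change of Ccl8 in IMQ against Control, -0.46, was under the fold threshold, but it was called at -0.90 with library totals alone and at -0.58 without Control 3 (adjusted p over the alternatives from 0.00180 to 0.201). For LYS against IMQ the estimate was 1.32 (SE 0.32, edgeR adjusted p = 0.0606). Ccl6, a further Ccr1 ligand, had 125, 103 and 68.4 FPKM in Control, 34.3, 122 and 72.8 in IMQ, and 67.9, 106 and 91.9 in LYS. Its groups overlapped in each comparison, and its estimate in IMQ against Control was 0.11 with TMM scaling and -0.37 with library totals alone.

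**Figure D2:**
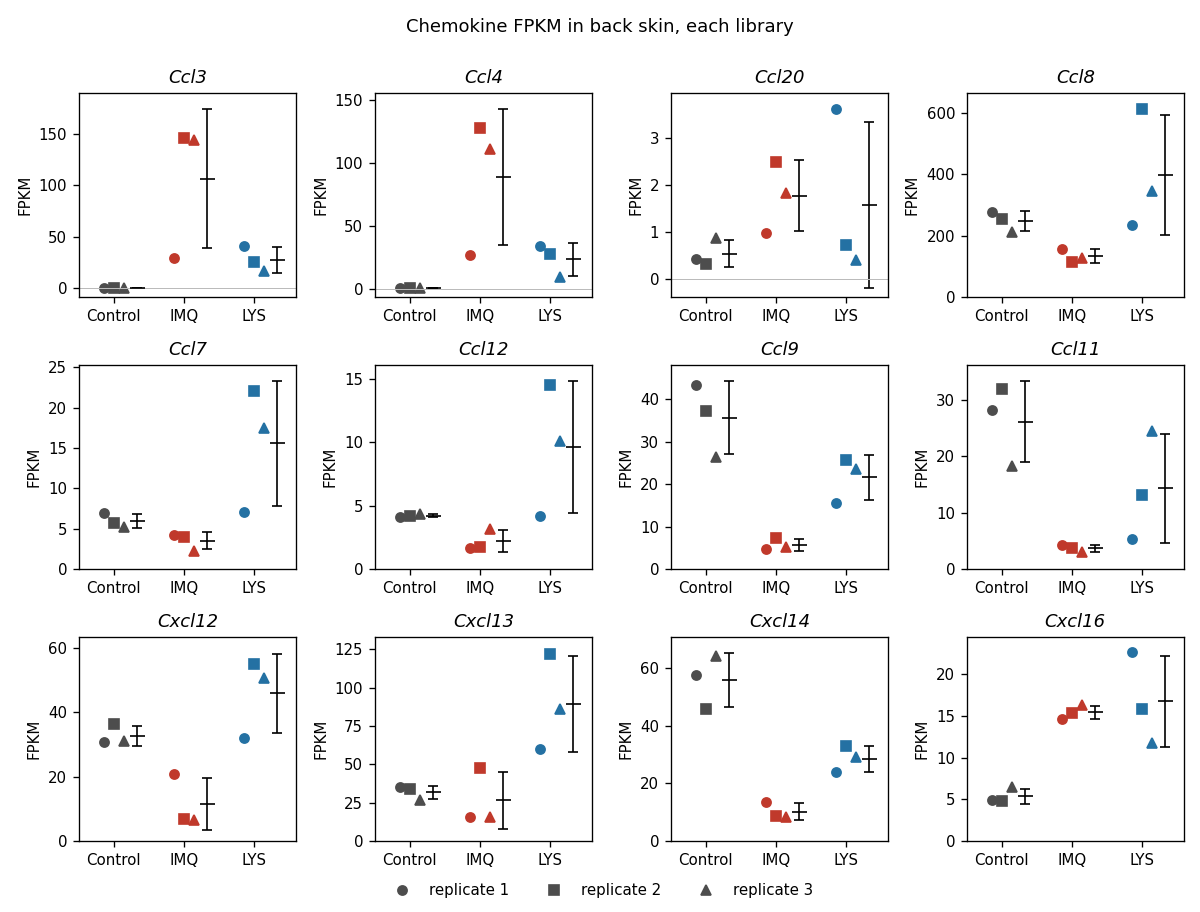
FPKM (vertical axis, linear) of 12 chemokines in each of the 9 libraries by group; the symbol gives the replicate number, and the black mark with bars is the group mean ± SD (n = 3). The IMQ libraries of Ccl3 stand between 29.4 and 147 and the Control libraries below 1, whereas for Ccl9 and Cxcl14 the IMQ libraries are the lowest.

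Among the CXC and other ligands, Cxcl14 and Cxcl9 fell and Cxcl16 rose in IMQ against Control. Cxcl14 (ENSMUSG00000021508, chr13:56288643-56296551), a chemokine that epithelia make constitutively, had 57.5, 45.9 and 64.3 FPKM in Control, 13.6, 8.69 and 8.22 in IMQ, and 23.8, 32.9 and 29.1 in LYS. The groups did not overlap, and the LYS libraries lay between Control and IMQ. Cxcl14 had a log2 fold change of -2.02 (SE 0.18, edgeR adjusted p = 6.15e-05) in IMQ against Control and -0.83 (SE 0.15, edgeR adjusted p = 0.00676) in LYS against Control. The estimate in LYS against IMQ was 1.25 (SE 0.19, edgeR adjusted p = 0.0591), and it was called without LYS 1, without IMQ 1, under DESeq2, with all 9 libraries in the fit and with no filter on low counts.

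Cxcl12, the stromal ligand of Cxcr4, had 30.7, 36.3 and 31.2 FPKM in Control, 20.9, 6.94 and 6.65 in IMQ, and 32.0, 55.0 and 50.7 in LYS. IMQ 1 thus lay between the other IMQ libraries and the Control group. The log2 fold change of -1.11 in IMQ against Control was not called without Control 1, Control 2, Control 3, IMQ 2 or IMQ 3 (adjusted p over the alternatives from 3.71e-05 to 0.107). The LYS against IMQ estimate was 1.78 (SE 0.44, edgeR adjusted p = 0.0606). Cxcl9 (ENSMUSG00000029417, chr5:92321347-92328079), an interferon-induced ligand of Cxcr3, had 3.88, 1.81 and 2.94 FPKM in Control, 0.461, 0.565 and 0.431 in IMQ, and 0.792, 1.05 and 2.05 in LYS. It fell in IMQ against Control by 2.10 on the log2 scale (SE 0.33, edgeR adjusted p = 0.000886), and each IMQ library lay below each library of the other groups.

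Cxcl16 and Cx3cl1, which are made as transmembrane proteins and released by cleavage, rose in IMQ against Control. Cxcl16 (ENSMUSG00000018920, chr11:70453983-70459984), the ligand of Cxcr6, had 4.93, 4.81 and 6.43 FPKM in Control, 14.6, 15.4 and 16.2 in IMQ, and 22.6, 15.8 and 11.7 in LYS. Cxcl16 had a log2 fold change of 1.97 (SE 0.15, edgeR adjusted p = 3.64e-05) in IMQ against Control and 1.80 (SE 0.29, edgeR adjusted p = 0.00408) in LYS against Control. Both treated groups lay above each Control library and overlapped each other. Cx3cl1, the ligand of Cx3cr1, had 2.60, 2.74 and 3.26 FPKM in Control, 4.06, 4.18 and 3.43 in IMQ, and 3.39, 3.48 and 3.08 in LYS. Its log2 fold change in IMQ against Control was 0.89 with TMM scaling and 0.44, not called, with library totals alone.

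Cxcl13 (ENSMUSG00000023078, chr5:95956951-95961068), the ligand of Cxcr5 that guides B cells, was called by edgeR in LYS against Control. It had 35.0, 33.7 and 26.8 FPKM in Control, 16.0, 47.9 and 15.8 in IMQ, and 59.9, 122 and 85.9 in LYS. Each LYS library lay above each library of the other groups, and IMQ 2 lay apart from IMQ 1 and IMQ 3. The log2 fold change in LYS against Control was 1.62 (SE 0.25, edgeR adjusted p = 0.00363), and in LYS against IMQ the estimate was 1.46 (edgeR adjusted p = 0.0937). In IMQ against Control the estimate was 0.21 with TMM scaling, -0.26 with library totals alone and -0.58 without IMQ 2. Whether the change in LYS differed from that in IMQ is the LYS against IMQ test, which was called under DESeq2 and by edgeR with no filter on low counts, and not otherwise.

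Of the tested receptors, edgeR called 7 of 14 higher in IMQ against Control and 6 of 14 higher in LYS against Control, where 24.1% and 15.1% of all genes were, and the others were not called. With library totals alone Ccr7 was not called in the first of these. Ccr1 (ENSMUSG00000025804, chr9:123962124-123968692), a receptor of Ccl3 and Ccl5 on monocytes and neutrophils, had 5.03, 2.86 and 3.29 FPKM in Control, 12.4, 29.1 and 33.4 in IMQ, and 23.2, 21.6 and 8.20 in LYS. Each treated library lay above each Control library. The log2 fold change of Ccr1 was 3.23 (SE 0.42, edgeR adjusted p = 0.000384) in IMQ against Control and 2.41 (SE 0.44, edgeR adjusted p = 0.00656) in LYS against Control. The LYS against IMQ estimate was -0.77 (edgeR adjusted p = 0.310).

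Cxcr6 (ENSMUSG00000048521, chr9:123806475-123811760), the Cxcl16 receptor of tissue-resident T cells, had 1.09, 1.08 and 1.09 FPKM in Control, 5.38, 3.02 and 5.54 in IMQ, and 6.82, 13.7 and 7.14 in LYS. On the FPKM scale, without TMM factors, the groups did not overlap and LYS was the highest. In LYS against IMQ, however, Cxcr6 was not called (edgeR adjusted p = 0.167). Cxcr6 had a log2 fold change of 2.54 (SE 0.27, edgeR adjusted p = 0.000152) in IMQ against Control and 3.22 (SE 0.32, edgeR adjusted p = 0.000767) in LYS against Control. Ccr6 (ENSMUSG00000040899, chr17:8236043-8257141), the Ccl20 receptor of interleukin-17 producing T cells, had 0.262, 0.330 and 0.327 FPKM in Control, 1.08, 0.836 and 1.43 in IMQ, and 1.44, 1.88 and 1.14 in LYS. It rose by a log2 fold change of 2.30 (SE 0.34, edgeR adjusted p = 0.000731) in IMQ against Control and 2.41 (SE 0.33, edgeR adjusted p = 0.00238) in LYS against Control.

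Cx3cr1 (ENSMUSG00000052336, chr9:119901616-120069879), found on monocytes, macrophages and some lymphocytes, had 0.637, 0.340 and 0.608 FPKM in Control, 1.28, 1.16 and 1.10 in IMQ, and 1.27, 1.30 and 1.15 in LYS. The treated groups both lay above Control, with log2 fold changes of 1.62 in IMQ and 1.38 (SE 0.29, edgeR adjusted p = 0.0105) in LYS. Ccr4, a receptor of Ccl17 and Ccl22 on skin-homing T cells, had 0.446, 0.346 and 0.773 FPKM in Control, 1.29, 1.62 and 1.51 in IMQ, and 2.29, 0.695 and 0.244 in LYS. Ccr7, which guides dendritic cells and T cells to lymph nodes, had 0.614, 0.722 and 1.12 FPKM in Control, 1.35, 1.16 and 1.26 in IMQ, and 2.59, 1.84 and 0.860 in LYS. Both were called higher in IMQ against Control, Ccr4 with a log2 fold change of 1.97 and Ccr7 with 1.07, and in both LYS 1 was the highest and LYS 3 the lowest of the LYS libraries. The Ccr7 call was lost without Control 1 or Control 2, with all 9 libraries and with library totals alone (adjusted p over the alternatives from 0.00520 to 0.117). Ccr9, the Ccl25 receptor, had 0.102 to 0.176 FPKM in Control, 0.562 to 0.656 in IMQ and 0.258 to 0.339 in LYS. It was also called higher, by 2.65 in IMQ and 1.40 in LYS on the log2 scale, and its estimate in LYS against IMQ was -1.20 (edgeR adjusted p = 0.0591). The call of Ccr9 in LYS was lost without Control 1, Control 2 or LYS 2 and with a replicate block (adjusted p over the alternatives from 0.00110 to 0.0690).

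Ccr2, the receptor of Ccl2, Ccl7 and Ccl12 on inflammatory monocytes, had 13.8, 4.65 and 7.18 FPKM in Control, 6.75, 2.99 and 3.07 in IMQ, and 9.49, 18.2 and 15.2 in LYS. LYS 2 and LYS 3 lay above each Control and IMQ library, and LYS 1 lay within the Control range. It was not called in IMQ against Control, and its LYS against IMQ estimate was 1.51 (SE 0.34, edgeR adjusted p = 0.0591).

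Cxcr4, the Cxcl12 receptor, had 7.36 to 10.9 FPKM in Control, 7.38, 5.37 and 6.93 in IMQ, and 12.8, 13.0 and 12.5 in LYS. Its LYS libraries differed little from each other and lay above the other groups, and the estimate in LYS against IMQ was 0.71 (SE 0.15, edgeR adjusted p = 0.0591). Cxcr3, the receptor of Cxcl9 and Cxcl10 on T cells, had 1.75, 1.33 and 1.38 FPKM in Control, 1.09, 0.306 and 0.922 in IMQ, and 1.54, 2.76 and 2.11 in LYS. Ccr10, the Ccl27a receptor, had 0.671, 0.709 and 0.439 FPKM in Control, 0.515, 0.647 and 0.651 in IMQ, and 0.751, 1.14 and 1.50 in LYS. The pairwise edgeR fits called none of these 3 receptors, while Cxcr4 was called higher in LYS against IMQ under DESeq2 and by edgeR with all 9 libraries, with no filter on low counts and without LYS 1.

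**Figure D3:**
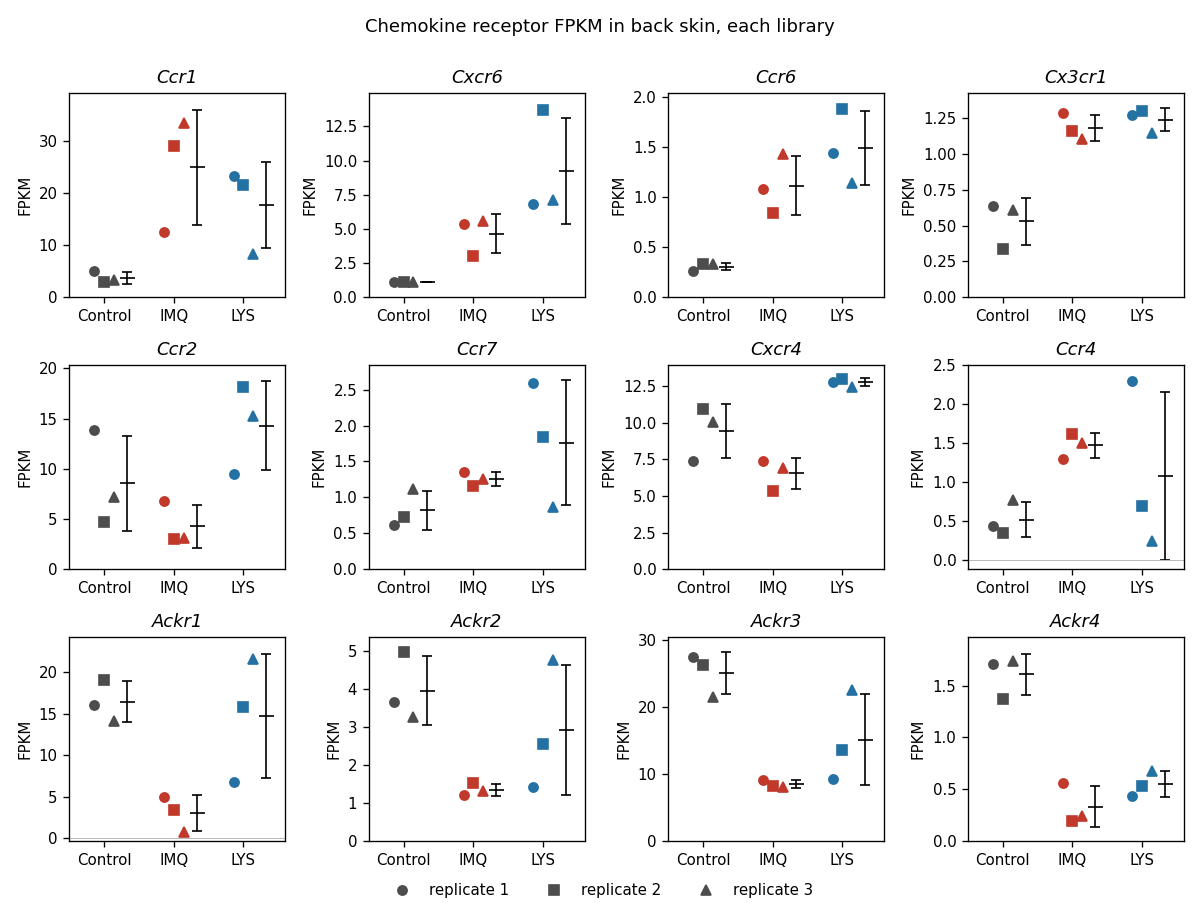
FPKM (vertical axis, linear) of 8 receptors and the 4 atypical receptors in each of the 9 libraries by group; symbols give the replicate number, and the black mark with bars is the group mean ± SD (n = 3). Cxcr6 stands near 1.08 in Control and between 6.82 and 13.7 in LYS, and the atypical receptors have their lowest mean in IMQ, with each LYS library of Ackr4 also below Control.

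All 4 atypical receptors were called lower in IMQ against Control, where 26.9% of all genes were, and these calls held in each of the 12 alternatives run, scaling by library totals included. Ackr3 (ENSMUSG00000044337, chr1:90203980-90216751), which removes Cxcl12, had 27.4, 26.3 and 21.5 FPKM in Control, 9.12, 8.26 and 8.07 in IMQ, and 9.29, 13.5 and 22.5 in LYS. Ackr1, the Duffy antigen receptor that presents chemokines on venules, had 16.1, 19.1 and 14.2 FPKM in Control, 4.95, 3.43 and 0.715 in IMQ, and 6.75, 15.8 and 21.7 in LYS. Ackr2, which degrades inflammatory CC chemokines and is found on lymphatic endothelium, had 3.65, 4.97 and 3.26 FPKM in Control, 1.21, 1.52 and 1.32 in IMQ, and 1.42, 2.56 and 4.77 in LYS. In these 3 genes LYS 1 lay near the IMQ libraries and LYS 3 lay within the Control range or, for Ackr1, above it. The log2 fold changes in IMQ against Control were -1.12 for Ackr3 (SE 0.13, edgeR adjusted p = 0.000255), -2.02 for Ackr1 and -1.11 for Ackr2. The estimate for Ackr1 in LYS against IMQ, 2.04 (edgeR adjusted p = 0.0815), was not called, although it was under DESeq2, with all 9 libraries, with no filter and without LYS 1. Ackr4 (ENSMUSG00000079355, chr9:104084157-104126933), which removes Ccl19, Ccl21 and Ccl25, had 1.71, 1.37 and 1.73 FPKM in Control, 0.558, 0.197 and 0.242 in IMQ, and 0.431, 0.533 and 0.679 in LYS. Both treated groups lay below each Control library, with log2 fold changes of -1.84 in IMQ and -1.42 (SE 0.22, edgeR adjusted p = 0.00363) in LYS.

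Summed over a role, the receptors had 37.6, 26.1 and 29.5 FPKM in Control, 42.7, 49.4 and 59.5 in IMQ, and 67.5, 89.4 and 61.3 in LYS. The sum of the atypical receptors was 48.9, 51.7 and 40.7 FPKM in Control, 15.8, 13.4 and 10.4 in IMQ, and 17.9, 32.4 and 49.6 in LYS. So the atypical receptors exceeded the other receptors in each Control library, and the reverse held in each IMQ and LYS library. The CC ligands summed to 521, 464 and 364 FPKM in Control, 275, 539 and 481 in IMQ, and 432, 874 and 562 in LYS, and the groups overlapped. These sums are on the FPKM scale, which is not adjusted by TMM factors (1.10 to 1.20 in Control, 0.790 to 0.915 in IMQ and 0.978 to 1.10 in LYS), so IMQ levels sit lower relative to Control than the fitted fold changes do.

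Of the members, 20 had a mean under 1 FPKM in each group, Ccr9 above among them. The lowest of the members outside these 20 reached a group mean of 1.13 FPKM, and the highest of the 20 reached 0.935, which was Ccr3 in LYS. Ccr3, the eotaxin receptor of eosinophils, had 0.826, 0.0468 and 0.250 FPKM in Control, 0.187, 0.162 and 0.307 in IMQ, and 0.542, 0.858 and 1.41 in LYS, and its estimate in LYS against IMQ was 1.82 (edgeR adjusted p = 0.0612). Of all 56 members, 7 had at most 3 counts in each library of Control, 9 in IMQ and 6 in LYS. Ccl19, Ccl27b, Ccl19-ps3 and the further copies of Ccl27a and Ccl21a were at or under 3 counts in all 9 libraries, where no difference was detectable at this depth. Cxcr5, the receptor of Cxcl13, had 1, 0 and 2 counts in Control, 9, 10 and 19 in IMQ, and 22, 4 and 8 in LYS, and its counts did not pass the filter of the pairwise fits. With no filter on low counts and with all 9 libraries it was tested and called higher in IMQ against Control and in LYS against Control, and not called in LYS against IMQ. It also passed the filter in IMQ against Control without Control 1, Control 2, Control 3 or IMQ 1, and was called higher each time. With so few Control counts it could pass only through the IMQ libraries, where it was high, so these calls are not separate support. Over these alternatives the adjusted p ranged from 0.00149 to 0.0149 for IMQ and from 0.0187 to 0.0222 for LYS, both against Control. Ccr3, Ccr9 and Cxcr5 were singled out after their values had been seen.

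Many members lie next to each other in the genome, and in IMQ against Control neighbours were called in opposite directions. A stretch of chromosome 11 (83525778 to 83664683) holds Ccl5, Ccl9, Ccl6, Ccl3 and Ccl4 in this order. There Ccl3 and Ccl4 rose, Ccl5 and Ccl9 fell, and Ccl6 was not called. Another stretch of chromosome 11 (82035571 to 82305690) holds Ccl2, Ccl7, Ccl11, Ccl12, Ccl8 and Ccl1, of which Ccl11 alone was called lower in IMQ against Control and Ccl2, Ccl7 and Ccl12 were called higher in LYS against Control. On chromosome 9 several receptor genes lie together, and Ccr9, Cxcr6 and Ccr1 among them were called higher in IMQ against Control. These positions are from GENCODE M21, which gave one for 54 of the 56 members.

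Genes downstream of or beside the chemokine receptors were taken from a list of 46 signalling and co-receptor genes, each of which was tested. In IMQ against Control 16 were called higher and 8 lower by edgeR (median log2 fold change 0.24), where 24.1% and 26.9% of all genes were. With library totals alone these were 13 and 15 (median -0.21, against -0.51 for all genes), where 15% and 42.9% of all genes were. The higher ones included the formyl peptide receptor genes Fpr1 (log2 fold change 3.39) and Fpr2 (3.55) and Ccrl2 (4.08), which binds chemerin without signalling. The lower ones included the platelet and macrophage chemokine Pf4 (-1.79), the chemerin gene Rarres2 (-1.52) and its receptor gene Cmklr1 (-1.96). In LYS against Control 28 were called higher and 0 lower by edgeR (median 0.75), where 15.1% and 12.9% of all genes were, among them Fgr (2.80), Pik3cd (2.17) and Vav1 (2.08), a tyrosine kinase, a phosphoinositide 3-kinase subunit and an exchange factor of leukocytes. DESeq2 called 30 higher and 0 lower there (16.5% of all genes higher and 2345 of 16003 lower), and by unadjusted p under 0.05 these were 32 and 0 (23% and 21.4%). Without LYS 2 the higher calls were 17 (10.8% of all genes), without Control 2 they were 18 (9.93%, with 8.05% lower), and without LYS 1 they were 27 (15.5%). Without LYS 3 there were 26 higher and 1 lower (16.7% and 14.2%). For LYS against IMQ edgeR called 0 in either direction with a median of 0.76. By unadjusted p under 0.05 there were 29 higher and 5 lower (19.3% and 15.9% of all genes), and DESeq2 called 26 and 5 (12.8% and 9.18%). Leaving out LYS 1 gave 27 higher and 3 lower there (14.9% and 11.9%), and leaving out IMQ 1 gave 15 and 3 (6.8% and 5.03%). The genes named from this list were chosen after their values were seen, and 2 genes of the list are also in another list.

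The neutrophil-attracting axis left out of the members was called higher in each gene tested, 5 of 5 in IMQ against Control and 5 of 5 in LYS against Control, where 24.1% and 15.1% of all genes were. Cxcl5 was not tested in the first comparison and Cxcr1 not in the second. Cxcl2, Cxcl3, Cxcl5 and Cxcr1 had at most 0.160 FPKM in a Control library. They could pass the filter only through treated libraries, where they were high, so these counts are not comparable with the shares of all genes. Its summed FPKM was 2.00, 1.75 and 2.01 in Control, 109, 388 and 373 in IMQ, and 184, 107 and 33.6 in LYS, with Cxcr2 the most abundant gene in each Control library and Cxcl2 in each IMQ and LYS library. In LYS against IMQ edgeR called 0 of 6. By unadjusted p under 0.05 there were 0 higher and 2 lower (15.9% of all genes were lower), and 1 was called lower by DESeq2 (9.18%) and without LYS 1 (11.9%). IMQ 1 was the lowest IMQ library in this sum and in Ccl3, Ccl4 and Ccr1.

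Marker genes of skin and blood cell types changed level between the same groups, and their part in the chemokine values was not tested. Counts of called markers in IMQ against Control are read beside 24.1% higher and 26.9% lower among all genes, and those in LYS against Control beside 15.1% and 12.9%. The gene said to lead a list had the highest FPKM of that list in each library, except where another is named. The 16 monocyte and macrophage markers, led by Lyz2, summed to 2159, 1628 and 1438 FPKM in Control, 977, 1037 and 888 in IMQ, and 1591, 2814 and 3647 in LYS. In IMQ against Control 8 of 16 were called lower and 1 higher, with 13 lower under library totals alone and 2 higher without IMQ 1. In LYS against Control 1 was called in each direction, but 14 were called higher and 1 lower without LYS 1, and 5 higher and 1 lower by DESeq2. The lower call was lost without Control 1, Control 2 or LYS 2, and there were 2 higher with all 9 libraries or no filter. LYS 1 had the lowest of the LYS sums, as it had the lowest LYS value of Ccl7, Ccl12, Ccl8 and Ccr2. The 13 neutrophil markers, led by S100a9, summed to 53.8, 40.5 and 144 FPKM in Control, 32520, 38390 and 38760 in IMQ, and 28520, 28850 and 10750 in LYS. S100a8, S100a9 and Lcn2 are also made by keratinocytes in inflamed skin. Of the 11 tested in IMQ against Control 9 were called higher and 1 lower, as were 8 and 1 of 10 in LYS against Control, where the lower call was lost without any single Control library, and LYS 3 was the lowest LYS library, as in Ccl3, Ccl4 and Ccr1.

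The 23 T cell markers were led by Thy1, which fibroblasts also express, and summed to 102, 101 and 90.7 FPKM in Control, 40.9, 19.7 and 26.7 in IMQ, and 63.0, 60.8 and 59.1 in LYS. Of 22 tested, 10 were called higher and 3 lower in IMQ against Control, and 11 higher and 1 lower in LYS against Control. The first of these counts was 4 and 4 with library totals alone, 6 and 2 without Control 2, and 7 and 1 without Control 1. The 14 dendritic and Langerhans cell markers, led by Epcam, an epithelial gene too, summed to 98.5 to 132 FPKM in Control, 154 to 190 in IMQ, and 118 to 182 in LYS, where LYS 1 was the highest as in Ccl22 and Ccr7. Of these 14, 5 were called higher and 2 lower in IMQ against Control, and 4 higher in LYS against Control, with 1 lower in the latter by DESeq2 or with library totals alone. In the first, 5 were lower without IMQ 1, library totals alone gave 3 higher and 5 lower, and 1 was lower in the other alternatives except DESeq2. For eosinophil, basophil and mast cell markers, led by Mcpt4 and in IMQ 2, IMQ 3 and LYS 2 by Cma1, 7 of 9 tested were called lower in IMQ against Control, and the sum went from 160 to 254 FPKM in Control to 45.5 to 72.0 in IMQ and 108 to 219 in LYS. The 8 NK cell markers, led by Gzma except in IMQ 1 (Nkg7), IMQ 2 and LYS 1 (Gzmb), summed to 8.68 to 14.1 FPKM in Control, 2.87 to 5.00 in IMQ and 7.63 to 15.3 in LYS, with 2 of 6 tested called lower in IMQ against Control. This count was 5 with library totals alone, 4 without IMQ 1, and 1 with all 9 libraries and without Control 1, Control 3, IMQ 2 or IMQ 3. The sum of the 8 B and plasma cell markers rested on Sdc1, which keratinocytes express, with 55.4 to 98.4 FPKM in Control, 182 to 191 in IMQ and 120 to 220 in LYS. Of 4 tested, 2 were called higher and 1 lower in IMQ against Control (2 lower with no filter on low counts).

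The structural cell types moved as well. The 15 blood endothelial markers, led by Plvap, summed to 328, 367 and 272 FPKM in Control, 174, 91.3 and 79.1 in IMQ, and 204, 348 and 380 in LYS, and 11 of them were called lower in IMQ against Control (7 without Control 2 or IMQ 2). The lymphatic endothelial markers without Ccl21a, led by Pdpn and in Control 1 and Control 2 by Lyve1, summed to 55.6, 65.5 and 48.6 FPKM in Control, 16.5, 13.2 and 10.5 in IMQ, and 34.4, 52.1 and 47.8 in LYS, and 5 of 6 were called lower in IMQ against Control. The atypical receptors Ackr1 and Ackr2, which these cells express, stood at their lowest in the same group. The 12 fibroblast markers, led by Col1a1 (in LYS 1 by Col3a1), summed to 3578, 4347 and 4147 FPKM in Control, 1338, 542 and 414 in IMQ, and 1308, 2178 and 2808 in LYS, with 10 called lower in IMQ against Control, and IMQ 1 was the highest IMQ library as in Cxcl12. The 14 keratinocyte markers, led by Krt14 in IMQ 1 and each LYS library and by Krt10 in the others, summed to 2938 to 5405 FPKM in Control, 16560 to 21020 in IMQ and 8779 to 14570 in LYS, with 13 called higher and 1 lower in IMQ against Control. Called lower in IMQ against Control were 12 of 13 hair follicle markers, 6 of 10 skeletal muscle markers and 7 of 8 adipocyte markers, and 1 hair follicle marker was called higher, while 2 muscle markers were higher without IMQ 3. In Control these lists were led by Krt71, Acta1 and Fabp4, and in IMQ and LYS the hair follicle sum was led by Foxn1, and the adipocyte sum by Cidec in IMQ 1 and each LYS library. The sums in Control and IMQ were 1130 to 2595 and 13.5 to 18.2 FPKM for hair follicle, 5621 to 5896 and 757 to 2077 for muscle, and 1166 to 3061 and 99.5 to 313 for adipocytes. In LYS these sums were 7.46 to 17.0, 2165 to 4091 and 341 to 884 FPKM. No listed gene that was found was at 0 in all 9 libraries.

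For LYS against Control, 12 of 13 hair follicle markers were called lower with every library and without any single one. The T cell count there stayed between 9 and 12 higher, with 1 lower, with each library left out. The counts of the lists below in that comparison depended on single libraries. Among all genes, 1502 of 16318 were called higher and 1077 lower without Control 1. Without Control 3 these were 1946 and 1619 of 16352, and with all 9 libraries 2617 and 1966 of 16392. Keratinocyte markers gave 9 higher and 1 lower, with 3 higher without Control 1, 4 without Control 2 and 5 with a replicate block. Fibroblast markers gave 5 lower and 1 higher, with 2 lower without Control 1, Control 2, Control 3 or LYS 2 or with a replicate block and 3 with all 9 libraries, and the higher call was lost without Control 1 and with all 9. Adipocyte markers gave 7 lower, with 2 without Control 1 or Control 2, 1 without LYS 2, and 4 with all 9 libraries or a replicate block. Muscle markers gave 5 lower and 1 higher. The lower calls were 2 without Control 1, Control 2 or LYS 2 or with all 9 libraries and 3 without Control 3 or with a replicate block, and the higher call was lost without Control 1, Control 2 or LYS 2 and was joined by another without LYS 1. Blood endothelial markers gave 2 higher, with 4 without LYS 1, 1 without Control 2 or LYS 3, with all 9 libraries, with library totals alone or with a replicate block, and none left without Control 1, Control 3 or LYS 2. For B and plasma cells the 3 higher calls were lost without any single Control library, without LYS 2 and with a replicate block, and 1 was left with library totals alone. The single NK cell call, which was higher, was lost without Control 2 or Control 3. The single eosinophil, basophil and mast cell call, which was lower, was lost without Control 1, Control 2, LYS 1 or LYS 2 or with a replicate block, and DESeq2 called 2 lower. In this list 1 marker was called higher without LYS 1, and 1 with no filter on low counts. Of the lymphatic markers 2 were called higher without LYS 1 and 1 lower without Control 3, by DESeq2, with library totals alone and with no filter.

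Between LYS and IMQ the pairwise edgeR fit called no marker, as it called no other gene tested, and the calls came from the alternatives. By unadjusted p under 0.05, where 19.3% of all genes were higher and 15.9% lower, the higher markers were 13 of 16 for monocytes and macrophages, 12 of 15 for blood endothelium, 9 of 12 for fibroblasts, 6 of 9 for eosinophils, basophils and mast cells, and 5 of 6 for lymphatic endothelium. Of the keratinocyte markers 8 of 14 were lower. DESeq2, with 12.8% of all genes higher and 9.18% lower, called 12, 12, 9, 6 and 4 of the same lists higher and 6 keratinocyte markers lower. Leaving out LYS 1 (14.9% and 11.9% of all genes) gave 14, 13, 7, 7 and 5 higher and 9 keratinocyte markers lower. Leaving out IMQ 1 (6.8% and 5.03%) gave 4, 12, 9, 5 and 5 higher and 3 lower, and no marker was called by edgeR without any other single library, with library totals alone, with RLE factors or with a replicate block. The median log2 fold changes of these lists were 1.40, 1.13, 1.30, 1.24 and 1.30, and -0.75 for keratinocytes, against 0.04 for all genes. In the remaining lists DESeq2 called 5 T cell markers higher and 1 lower, 5 dendritic and Langerhans cell markers higher and 1 lower, 3 NK cell and 3 adipocyte markers higher, 1 B and plasma cell marker in each direction, and 1 neutrophil marker higher and 3 lower. Without LYS 1 the T cell count was 1 lower, the neutrophil count 1 lower, the dendritic count 3 higher and 2 lower, the B and plasma cell count 3 higher and 2 lower, the adipocyte count 3 higher and 1 lower, and the NK cell count 4 higher.

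Promoter sequence from RefSeq around gene starts (GRCm38.p6) was matched by symbol to 41 of the 56 members, which held 39 symbols and 46 promoters. The letters GGG and TTTCC with any 2 bases between them, of the kappa B type bound by NF-kappa B, were found on either strand in 1.63% of 32851 promoters and in 3 of these 46. The letters GAAA and GAAA with any 2 bases between them, of the type bound by interferon regulatory factors, were found in 3.44% of all promoters and in 3 of the 46. A match describes these letters and is not evidence of binding. The 3 windows below are those of called members with a match, shown because Ccl20 rose and Ccl9 and Cxcl14 fell in IMQ against Control, so that the kappa B type letters stood before a gene that rose and a gene that fell. They are read 5′ to 3′ along the gene, with the match in capitals, and in Ccl20 and Ccl9 the kappa B type letters lie on the opposite strand. The window of Ccl20 is chr1:83116646-83116735 on the plus strand, that of Ccl9 is chr11:83578637-83578711 on the minus strand, and that of Cxcl14 is chr13:56296674-56296763 on the minus strand.
Ccl20: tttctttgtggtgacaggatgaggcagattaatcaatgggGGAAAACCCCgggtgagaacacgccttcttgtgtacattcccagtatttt
Ccl9: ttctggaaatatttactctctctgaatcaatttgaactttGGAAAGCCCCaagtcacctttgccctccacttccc
Cxcl14: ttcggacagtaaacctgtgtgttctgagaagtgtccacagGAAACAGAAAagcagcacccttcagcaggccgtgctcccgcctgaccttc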

How the data were processed

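Skin RNA of 9 libraries in 3 groups was sequenced, and the groups and replicate numbers are those of the sample titles. The authors deposited whole-number counts per Ensembl gene that were not normalized, and the submitters' processing notes name HISAT2, HTSeq 0.13.5 and GRCm38. The FPKM values were also deposited by the authors, and each corresponded to the count divided by a gene length that was the same in all libraries for 100% of the genes (tolerance 0.001). Of the 29205 genes, 29107 were found in GENCODE M21. The fit was also run on simulated counts with the same spread for every gene, which checked the code and does not show how it behaves in these data. The counts of the 6 libraries of a comparison were fitted without a block in R 4.3.3, with Benjamini-Hochberg adjustment over all genes tested. They were fitted by the quasi-likelihood test of edgeR 4.0.16 after TMM scaling and filterByExpr. A gene was called where the adjusted p was under 0.05 and its log2 fold change exceeded 0.58 in size, which are the study's thresholds. The standard error (SE) was derived from that test, as the size of the log2 fold change divided by the square root of the F statistic. Alternatives were DESeq2 1.42.0, RLE factors, library totals alone, no filter on low counts, all 9 libraries in the fit, a replicate block, no fold minimum, an absolute log2 fold change over 1, and each library left out in turn.

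Members with a group mean of at least 1 FPKM (36 of 56) were eligible to be named with their values, and not all of them are. Statistics with SE were given for at most 12 members, those with the smallest p in each comparison among those at 1 FPKM or more in a compared group; a log2 fold change alone was given for other called members, and members named outside this rule were chosen after their values were seen. At most 3 counts in each library of a group was treated as the floor. The members, 2 gene lists and 14 marker lists were chosen with earlier results of these data known. Python 3.11.15 and matplotlib 3.10.9 made the figures.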

Additional observations from a re-analysis of the deposited data

How the results depend on the processing

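In IMQ against Control, 20 of the 26 called members were called under each of the 12 alternatives that refit the model, and the counts ranged over 13 to 14 higher and 11 to 12 lower with each library left out. In LYS against Control, 10 of 15 were called under each. The higher calls there ranged from 8 to 16 and the lower calls from 2 to 6 with each library left out, and the lower calls were 5 under DESeq2 and 1 at an absolute log2 fold change over 1. In LYS against IMQ the calls were 16 higher and 3 lower under DESeq2 and 15 and 3 with all 9 libraries in the fit. With no filter on low counts they were 15 and 3, where 1453 and 966 of all 27402 genes tested were called. With a library left out the member calls ranged from 0 to 19 higher and from 0 to 4 lower. With RLE factors, with library totals alone and without a fold minimum they were 0 and 0. The cause of these differences was not tested. With the replicate number as a replicate block, LYS against Control gave 8 higher and 2 lower, IMQ against Control 13 and 11, and LYS against IMQ 0 and 0. The numbers did not pair the samples, since same-numbered libraries correlated in their deviations from the group means at -0.338 to 0.123, and not every library correlated best with its own number. Estimates that changed sign were uncalled ones of IMQ against Control: Ccl6 (-0.371 with library totals alone, -0.026 with the replicate block, -0.436 to 0.508 with a library left out) and Cxcl13 (-0.26, -0.003 and -0.579 to 0.536). Of the log2 fold changes given in the text, 387 of 420 values under alternatives kept their direction and side of the threshold in IMQ against Control, 181 of 204 in LYS against Control and 155 of 228 in LYS against IMQ, where the other 73 moved past the threshold. Counts of 4 to 9 in Control limit the precision of the Ccl3 and Ccl4 folds.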
